A study of Mus musculus with 27 samples.

Results

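The transcripts of the proteasome were followed in 3 tissues of *Mlx*KO mice at 2 ages. Its genes were taken from the table by symbol: every row named Psma, Psmb, Psmc, Psmd, Psme or Psmg with a number was kept, except *Psmb8*, *Psmb9* and *Psmb10*, which form the immunoproteasome. This gave 44 of the 36333 genes. They were grouped by the place of the protein in the complex: 7 subunits of the outer, alpha ring of the 20S core, 7 of its inner, beta ring, 9 of the base and 8 of the lid of the 19S regulatory particle, 7 assembly chaperones, 4 genes of alternative activators and 2 forms known from germ cells or thymus.

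The proteasome degrades proteins tagged with ubiquitin. Its core is a barrel of stacked alpha and beta rings with the cutting sites inside, and the regulatory particle at either end binds the tagged protein, removes the ubiquitin in its lid and unfolds and threads the chain with the ring of ATPases in its base. Core and particle are built in fixed proportions with the help of dedicated chaperones, and subunit genes are known to be transcribed together, largely through the factor Nfe2l1 when proteasome activity is short. Liver and skeletal muscle depend on the complex for protein turnover, and in wasting muscle the ligases Fbxo32 and Trim63 feed it.

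RNA-seq of liver, omental adipose tissue and skeletal muscle from male mice was available for 27 samples, 4 of each tissue from 5-month mice and 5 of each from 20-month mice. All mice carried the genotype labelled MlxKO from Gt(ROSA)26Sortm1(cre/ERT2)Tyj mice on B6.129 crossed to Mlx Flox/Flox, in which Cre is driven by the ubiquitous ROSA26 promoter and tamoxifen starts the deletion of *Mlx*. Deletion was not complete: a record of residual *Mlx* kept by the study for these tissues lists the most in muscle and the least in liver. It tends to be higher in the older mice for adipose tissue and muscle, with ranges that overlap between the ages. Both ages had been given tamoxifen intraperitoneally in corn oil at weaning, 5 daily injections of 75 mg/kg, once a weight of 15 g was reached. Mice with intact *Mlx* were not analysed here, so that the samples were compared by age and tissue. The extent of deletion cannot be told apart from tissue, and its part in the age changes was not tested. Ages are those of the age label. The codes of the older samples, and that same record, give a somewhat younger age. The same 4 mice, called A to D here in the order of their label numbers, gave all 3 tissues at 5 months. The age comparisons of the 3 tissues therefore share these animals. The 20-month samples carry no number in common, and the labels do not say whether any of them share a mouse. Each is called a mouse here by its code.

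Values are the deposited ones, reads per gene scaled to CPM and divided by a further factor of each sample. Each sample had between 14384695 and 25673919 reads on genes, and a value of 3 reads, the least taken as detected, was 0.0703 to 0.242. *Mlx* itself ranged over 18.8 to 32.4 in liver, over 8.19 to 13.9 for adipose samples and over 7.04 to 11.6 in muscle. A gene total does not separate the deleted exons and no undeleted sample was at hand, so these values do not check the genotype. Summed markers of each labelled tissue were high where they belonged: 45093 to 161838 for 5 hepatocyte genes in liver, 5886 to 13229 for 5 adipocyte genes in adipose tissue, and 120264 to 155271 for 5 fibre genes in muscle. Adipose samples also held fibre genes, at 98.9 to 829 in sum, and hepatocyte genes, at 3.11 to 231. In muscle, hepatocyte genes summed to 1.31 to 339 at 5 months and 0.143 to 64.3 at 20 months. Adipocyte genes summed to 280 to 439 in muscle and to 33.0 to 236 in liver. The part of such signal in the proteasome values was not tested. The labels name a lipid tissue kit for RNA of adipose tissue and muscle and another kit for the rest, whereas the methods of the study name a single kit for all samples. If the kits differed, kit and tissue cannot be told apart.

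Of the 44 genes, 42 passed the filter on low values in each tissue, with at least 23 reads in every sample. The other 2 were *Psma8*, an alpha subunit of meiotic cells, at 0 to 2.04, and *Psmb11*, the thymus form, which was at 0 in every sample except the muscle of 5-month mouse B, where it had 1 read. *Psma8* entered only the fit over all 27 samples. Reads can be shared with near-identical copies. Of the 50-base words in *Psme2*, 59.3% also occur in *Psme2b*, which has its own row at 0.242 to 4.03. Shares of 49.4% in *Psmb5*, 39.9% in *Psmb3*, 37.2% in *Psma5* and 25.6% in *Psmd2* and *Psma4* are with copies that have no row, and values of these genes are uncertain to that extent. *Psme1* overlaps *Emc9*, *Psme4* overlaps *Erlec1* and *Psmd1* overlaps *Htr2b*, and the strand setting of the counting is not given in the sources used here.

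Promoter sequence is shown for 4 genes: *Psmb5*, which encodes the chymotrypsin-like catalytic subunit, *Psmd9*, *Psmd11* and *Psme3*. With age, *Psmd9* and *Psme3* fell in liver and *Psmd11* fell in muscle, at a limma adjusted p under 0.05. *Psmb5* did not pass that threshold in any tissue in the main fits. The 4 genes do not stand for all those that changed with age. Each sequence is a 120-base stretch read 5′ to 3′ on the strand of the gene, from RefSeq on GRCm38.p6, outside every annotated exon. Capitals mark matches to 4 motifs searched on both strands: TGACNNNGC and TGAGNNNGC, the core of the antioxidant response element that the Nfe2l1 family binds, CACGTG, the E-box of the Myc and Mlx networks, and CCAAT, bound by NF-Y.
*Psmb5*, chr14:54618023-54618142, minus strand: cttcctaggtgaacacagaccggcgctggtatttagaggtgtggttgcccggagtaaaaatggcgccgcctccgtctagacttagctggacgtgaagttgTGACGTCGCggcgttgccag
*Psmd9*, chr5:123228070-123228189, plus strand: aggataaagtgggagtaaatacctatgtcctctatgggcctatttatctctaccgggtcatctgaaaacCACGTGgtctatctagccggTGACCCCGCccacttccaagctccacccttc
*Psmd11*, chr11:80428495-80428614, plus strand: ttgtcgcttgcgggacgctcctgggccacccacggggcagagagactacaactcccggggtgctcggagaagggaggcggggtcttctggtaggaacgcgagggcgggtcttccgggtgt
*Psme3*, chr11:101316093-101316212, plus strand: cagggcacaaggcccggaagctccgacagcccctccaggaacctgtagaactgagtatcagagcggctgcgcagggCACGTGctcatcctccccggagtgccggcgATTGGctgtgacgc
In *Psmd9* an E-box at −51 to −46 from the start lies beside the antioxidant core at −31 to −23. *Psme3* has an E-box at −44 to −39 and CCAAT on the opposite strand at −14 to −10. *Psmd11* held none of the 4 motifs in its window.

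Windows from 250 bases before to 50 bases after the start were at hand for 36 of the 44 genes, the missing ones being *Psmb1*, *Psmb2*, *Psmb7*, *Psmc3*, *Psmd3*, *Psmd7*, *Psmg2* and *Psma8*. TGACNNNGC occurred in 6 of the 36 (16.7%), against 13.99% of the 27025 genes with a window. The 6 were *Psmb5*, *Psmb6*, *Psmc6*, *Psmd9*, *Psmd12* and *Psme4*. TGAGNNNGC occurred in 12 (33.3%, against 19.9%), CACGTG in 3 (8.33%, against 8.09%), namely *Psma4*, *Psmd9* and *Psme3*, and CCAAT in 13 (36.1%, against 41.1%). A match is a match of letters only.

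In liver, 5 of the 17 genes of the 19S regulatory particle fell with age, against 9.79% of all genes tested. Of the 14 core genes 0 were called, against 19.8% of all genes in either direction. Among the 42 genes tested, 10 (23.8%) passed an adjusted p of 0.05, against 19.8% of all 12654 genes tested. Of these, 2 rose (4.76%, against 10%) and 8 fell (19.05%, against 9.79%). The median log2 change was −0.22, against 0.00 for all genes, and 32 of the 42 were below 0. All 9 base genes were below 0, with a median of −0.50, and 3 fell. In the lid 7 of 8 were below 0, with a median of −0.35, and 2 fell. The alpha and beta rings had medians of −0.14 and −0.07, with 0 of 14 called by limma, edgeR or DESeq2, 0 at an unadjusted p under 0.05, and limma adjusted p-values of 0.144 and above. With sample weights *Psma5* and *Psma6* were called lower. Scaling without the 20 most abundant genes called 1 beta gene higher and only 1 of the 17 genes of the particle lower. Removal of a length and GC trend called 1 alpha gene and 10 of the 17 lower.

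**Figure D1:**
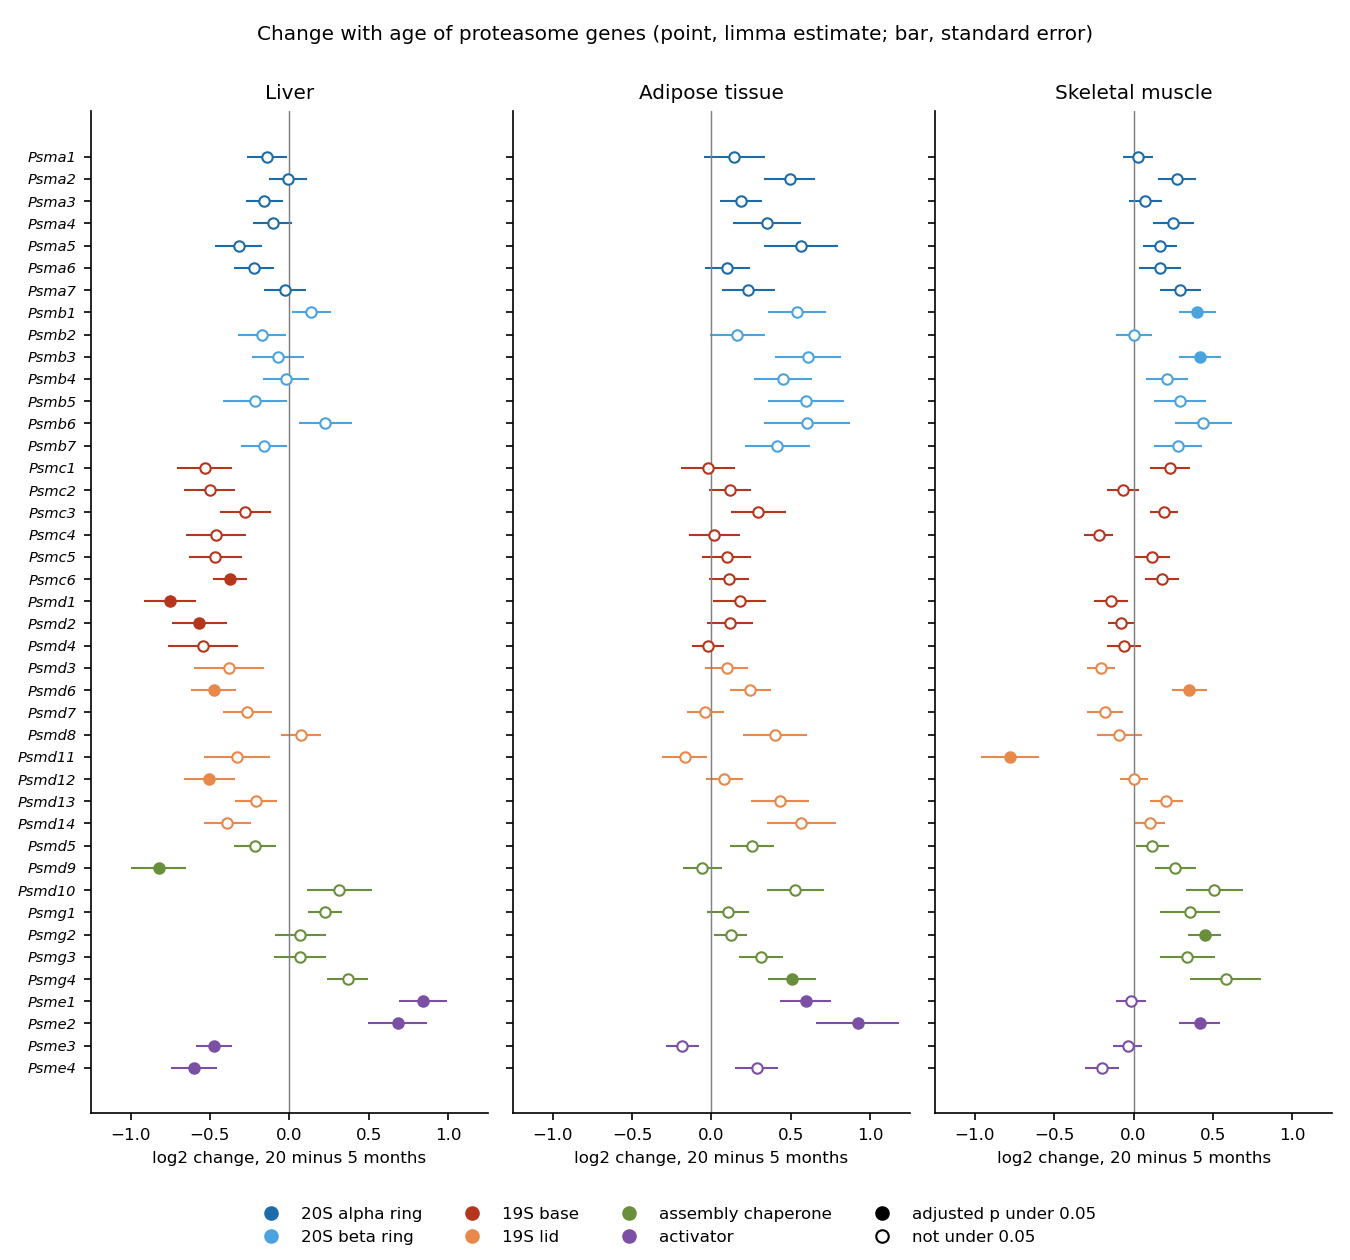
Log2 change from 5 to 20 months of each proteasome gene in liver, adipose tissue and skeletal muscle on the x axis, grouped by complex, with the limma estimate as a point, its standard error as a bar, and filled points for an adjusted p under 0.05. In liver the base and lid sit left of 0 at medians of −0.50 and −0.35 while *Psme1* lies at 0.84, and in muscle *Psmd11* lies alone at −0.78.

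*Psmd9*, a chaperone that holds ATPases of the base together during assembly, fell the most. Its values at 5 months were 94.0, 110, 81.4 and 77.6 in mice A, B, C and D, and at 20 months 71.5, 44.9, 51.0, 51.7 and 38.1 in mice 16, 17, 18, 19 and 74. Every 20-month sample lay below every 5-month sample, with mouse 16 nearest and mouse 74 farthest. The change was −0.82 on the log2 scale (SE 0.17, limma adjusted p = 0.0128), from 90.7 ± 14.6 (SD, n = 4) to 51.4 ± 12.5 (SD, n = 5).

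*Psmd1*, the largest scaffold of the base, had 199, 254, 232 and 243 at 5 months and 175, 146, 135, 149 and 93.4 at 20 months in the same order of mice. The ages again did not overlap, and mouse 74 was the lowest. The fall was −0.75 (SE 0.16, limma adjusted p = 0.0150). Its partner scaffold *Psmd2* fell by 0.57 and the ATPase *Psmc6* by 0.38 (adjusted p = 0.0445 and 0.0343). The ATPase genes *Psmc1* and *Psmc2* did not overlap between the ages either, at −0.53 and −0.50, but missed the threshold (adjusted p = 0.0521 and 0.0506).

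In the lid, *Psmd6* fell by 0.48 and *Psmd12* by 0.50 on the log2 scale (limma adjusted p = 0.0395 and 0.0473). *Psmd14*, which removes the ubiquitin chain, had −0.39 and was not called (adjusted p = 0.0820). *Psmd8* was the only lid gene above 0, at 0.08 (adjusted p = 0.692).

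The catalytic subunits showed no separation. *Psmb5* had 119, 115, 172 and 161 at 5 months and 156, 119, 122, 142 and 77.9 at 20 months. *Psmb6*, the caspase-like subunit, had 89.2, 83.0, 122 and 125, then 136, 118, 136, 135 and 87.8. *Psmb7*, the trypsin-like one, had 142, 133, 185 and 185, then 164, 138, 145, 160 and 112. In all 3 the ages overlapped and mice A and B were the low pair at 5 months, while mouse 74 was lowest at 20 months. The log2 changes were −0.22, 0.23 and −0.16, with standard errors of 0.20, 0.17 and 0.15.

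The activators divided. *Psme1* and *Psme2* encode the PA28 cap, which interferon induces and which opens the core without ATP. *Psme1* had 67.6, 51.2, 80.6 and 73.2 at 5 months and 95.4, 123, 138, 119 and 137 at 20 months. All 20-month samples were above all 5-month samples, a rise of 0.84 (SE 0.15, limma adjusted p = 0.00866). *Psme2* had 50.7, 36.9, 55.3 and 50.5, then 53.1, 76.8, 84.6, 73.8 and 108. Here mouse 16, at 53.1, lay within the younger range and mouse 74 was highest, and the rise was 0.68 (SE 0.19, limma adjusted p = 0.0303).

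The other activators fell. *Psme4*, which encodes PA200, a large cap of the nuclear proteasome, had 187, 222, 208 and 203 at 5 months and 178, 143, 124, 135 and 102 at 20 months. The ages did not overlap, and the fall was −0.60 (SE 0.15, limma adjusted p = 0.0197). *Psme3*, the nuclear PA28 gamma, fell by 0.47 (adjusted p = 0.0184), also without overlap.

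In all, 9 genes lay wholly below at 20 months (21.4% of those tested, against 10.7% of all genes) and 2, *Psme1* and *Psmg4*, wholly above (4.76%, against 8.46%). *Psmg4*, part of a chaperone pair that builds the alpha ring, had a change of 0.37 and was not called (adjusted p = 0.0646). The chaperones *Psmd5*, *Psmd10* and *Psmg1* to *Psmg3* had changes of −0.22 to 0.32 and were not called.

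Liver counts depended on single samples. Without 5-month mouse B or 20-month mouse 18, 3 genes were called, without D or 17, 5, without C or 19, 6, and without 20-month mouse 16, 17. *Psme1*, *Psmd9* and *Psmd1* were called whichever sample was left out. *Psme3* and *Psme4* were lost without B or 18. *Psmc6*, *Psmd2*, *Psmd6*, *Psmd12* and *Psme2* were all lost without mouse B, D, 17 or 18, all but *Psmc6* without A, all but *Psme2* without C and all but *Psmd12* without 19. Rescaling without the 20 most abundant genes moved the median of all genes to 0.16, against −0.04 for proteasome genes. It turned the ring medians to 0.03 and 0.10, left all 9 base genes below 0 and changed the calls to 5 higher and 3 lower. Shares of all genes are given for the main fit only, so counts under other scalings have no such share beside them. In that scaling 1 of the 17 base and lid genes was called lower and 1 of the 14 core genes higher. Quantile normalization put the beta median at 0.00. With the trend of the changes on length of the transcript and GC content removed, 1 gene rose and 13 fell, 7 of the 9 base genes among them, and *Psme4* was no longer called (−0.39, adjusted p = 0.109).

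**Figure D2:**
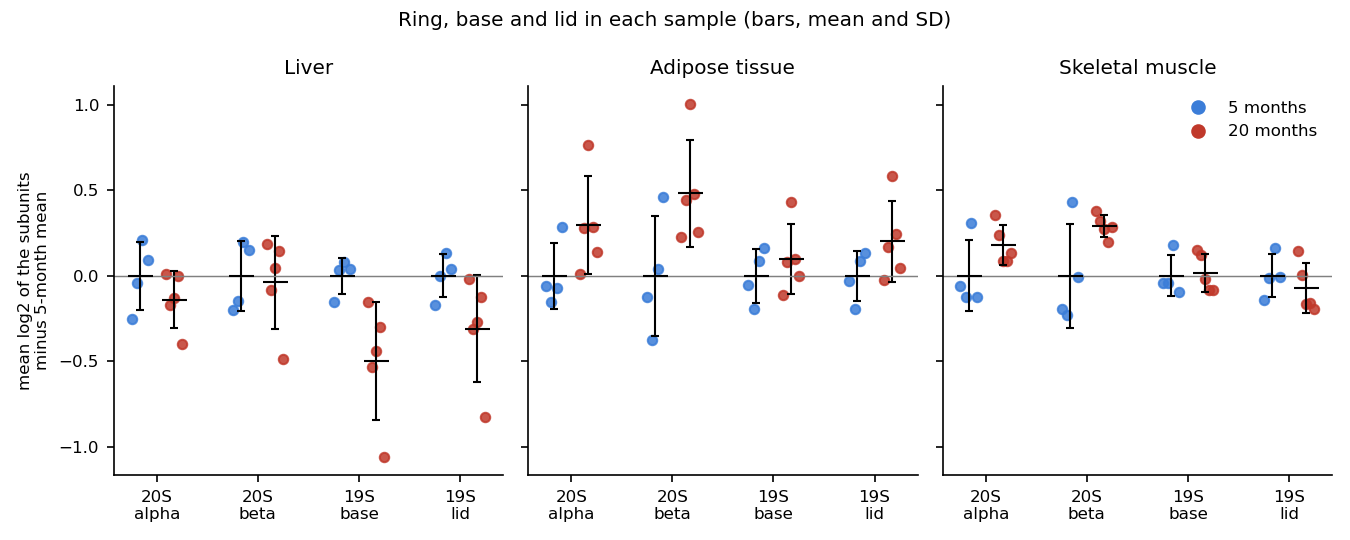
Mean log2 value of the subunits of each ring, the base and the lid in every sample, less the 5-month mean of the tissue, with 5 and 20 months as separate colours and bars for the mean and SD. In liver the base samples at 20 months lie below those at 5 months by 0.50 on average, with mouse 74 lowest, and in adipose tissue and muscle the ring samples at 20 months have the higher mean while the ages overlap.

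The base averaged 7.24, 7.43, 7.47 and 7.43 on the log2 scale at 5 months and 7.24, 6.86, 6.95, 7.09 and 6.33 at 20 months in liver. Mouse 16 reached the lowest 5-month mouse to 2 decimals, and mouse 74 was apart at 6.33. In the same libraries the beta ring averaged 6.75, 6.80, 7.15 and 7.10, then 7.14, 6.87, 6.99, 7.09 and 6.46, with overlap. Hepatocyte markers summed to 105145 to 161838 at 5 months and 45093 to 98441 at 20 months, with 1 of 5 called lower. Macrophage markers rose in 2 of 5 (132 to 201 in sum, then 175 to 652) and B cell markers in 4 of 4 (1.24 to 6.48, then 6.63 to 14.03). Erythroid markers rose in 3 of 4 (624 to 767, then 862 to 1163), mesothelial in 1 of 4 and plasma cell in 1 of 4, and endothelial markers fell in 1 of 3 (95.5 to 158, then 83.1 to 105). In bulk samples fewer cells of a type and less RNA per cell cannot be told apart, and the part of these cells in the proteasome values was not tested.

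The immunoproteasome genes *Psmb8*, *Psmb9* and *Psmb10*, which replace the catalytic subunits in immune cells, rose by 1.73, 1.51 and 1.71 in liver and by 1.41, 1.60 and 1.44 in adipose tissue, and in muscle they were not called, at 0.43 for *Psmb8* (limma adjusted p = 0.179).

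In adipose tissue, 36 of the 42 genes tested were above 0 at 20 months, with a median of 0.24 against 0.01 for all genes, yet only 3 were called. These were 7.14% of those tested, against 19.1% of 14005 genes. All 3 rose (against 9.75% of all genes higher), and none fell (against 9.35% lower; 0 by limma, edgeR or DESeq2, and 0 at an unadjusted p under 0.05 in that direction). With sample weights *Psmd11* and *Psme3* were called lower. No proteasome gene lay wholly below at 20 months (against 9.10%), and 2 lay wholly above (4.76%, against 8.30%).

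*Psme2* rose the most. It had 23.1, 15.8, 31.3 and 45.1 at 5 months and 43.5, 52.8, 68.7, 45.8 and 51.4 at 20 months in mice 36 to 40. Only mouse D, at 45.1, reached the older range, and the rise was 0.92 (SE 0.26, limma adjusted p = 0.0404). *Psme1* had 35.3, 28.9, 41.6 and 45.6, then 48.5, 57.7, 71.4, 49.1 and 60.5. Its ages did not overlap, with a rise of 0.59 (SE 0.16, limma adjusted p = 0.0354). *Psmg4* had 4.21, 3.51, 4.65 and 5.62, then 6.69, 5.96, 8.48, 7.12 and 5.71, again without overlap though mice D and 40 differed by little, a rise of 0.51 (SE 0.15, limma adjusted p = 0.0464).

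The catalytic genes ran higher at 20 months in adipose tissue but were not called. *Psmb5* had 32.4, 27.1, 31.8 and 48.9 at 5 months and 40.6, 51.9, 85.0, 53.6 and 40.2 at 20 months. *Psmb6* had 33.0, 25.1, 44.1 and 64.7, then 50.3, 58.2, 89.3, 62.4 and 48.0. *Psmb7* had 44.8, 38.7, 48.4 and 76.5, then 54.7, 72.2, 88.8, 61.9 and 64.4. In each the overlap came from mouse D, the highest 5-month sample, and mouse 38 was the highest of all 9. The changes were 0.60, 0.60 and 0.41 (adjusted p = 0.0950, 0.124 and 0.154). With 1 sample left out in turn they were called in 1 of 9 sets, that without mouse D, and since D was the highest younger sample this set is no support for a rise.

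By group, the beta ring had a median of 0.54 and the alpha ring 0.23, with all 14 genes above 0, against 0.11 for the base and 0.17 for the lid. With the length and GC trend removed the medians were 0.36, 0.09, −0.01 and 0.07. The count of called genes was 11 without mouse D, 5 without 20-month mouse 36, and 0 without 5-month mouse A or B or any of the 20-month mice 37 to 40. *Psme1* and *Psme2* were lost in the same 6 sets, and *Psmg4* in 8 of 9. Macrophage markers were called higher in 2 of 5 (563 to 1414 in sum, then 893 to 4934, the highest in mouse 38) and B cell markers in 4 of 4 (2.96 to 15.1, then 10.98 to 150.04). Endothelial markers fell in 2 of 3, mesothelial in 2 of 4 and erythroid in 2 of 4, and the part of any of these cells in the proteasome values was not tested.

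In skeletal muscle, the count of proteasome genes called ran from 2 to 22 with 1 sample left out in turn. Of the 42 genes tested, 6 were called (14.3%, against 19.3% of 12720 genes), 5 higher (11.9%, against 9.13%) and 1 lower (2.38%, against 10.1%). *Psmd11* fell and *Psmg2* rose whichever sample was left out, and the other 4 calls, *Psmb1* and *Psmb3* of the beta ring among them, were each lost in 8 of 9 such sets. The median was 0.17, against 0.02 for all genes. *Psmg2* lay wholly above at 20 months, the only such gene (2.38%, against 8.63%), and none lay wholly below (against 8.64%).

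*Psmd11* encodes a scaffold subunit of the lid. It had 302, 426, 333 and 387 at 5 months and 329, 221, 175, 181 and 171 at 20 months in mice 56 to 60. Mouse 56 lay among the younger mice and the other 4 were below all of them. The fall was −0.78 (SE 0.18, limma adjusted p = 0.0161), from 362 ± 55.2 (SD, n = 4) to 216 ± 66.3 (SD, n = 5). The same gene had −0.33 in liver and −0.17 in adipose tissue and was not called there (limma adjusted p = 0.264 and 0.388).

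*Psmg2*, a chaperone of the alpha ring, had 13.4, 11.4, 15.1 and 14.1 at 5 months and 19.04, 18.7, 18.2, 17.3 and 20.5 at 20 months. The ages were apart, with a rise of 0.45 (SE 0.11, limma adjusted p = 0.0166). It was called whichever sample was left out, but not once the length and GC trend was removed (0.24, adjusted p = 0.0780).

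*Psmb3*, a structural beta subunit, had 67.1, 62.3, 103 and 81.9, then 107, 106, 103, 99.7 and 101. The 20-month values lay close together, and mouse C reached them. The rise was 0.42 (SE 0.13, limma adjusted p = 0.0446). *Psmb1* rose by 0.40 and the lid gene *Psmd6* by 0.35 (adjusted p = 0.0338 and 0.0476). *Psme2* had 11.8, 11.2, 17.2 and 12.1, then 17.995, 15.96, 16.6, 17.8 and 19.5, a rise of 0.42 (SE 0.13, limma adjusted p = 0.0452), with mouse C again the only younger one in the older range. *Psme1* did not follow it, at 26.97, 23.7, 26.8 and 23.1, then 23.5, 24.3, 24.95, 26.97 and 24.4, a change of −0.02 (SE 0.09, limma adjusted p = 0.920).

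Mouse C had the highest 5-month values of the catalytic genes too. *Psmb5* had 73.2, 71.1, 132 and 108 at 5 months and 115, 121, 108, 108 and 118 at 20 months. *Psmb6* had 63.0, 66.5, 129 and 84.4, then 124, 110, 111, 102 and 113. *Psmb7* had 163, 176, 298 and 202, then 272, 244, 250, 228 and 247. In all 3, mouse C was the highest of the 9 samples and mice A and B the lowest. Changes of 0.29, 0.44 and 0.28 missed the threshold (adjusted p = 0.212, 0.0965 and 0.200). With 1 sample left out in turn they were called in 1 of 9 sets, that without mouse C, the highest sample, which is no support for a rise.

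**Figure D3:**
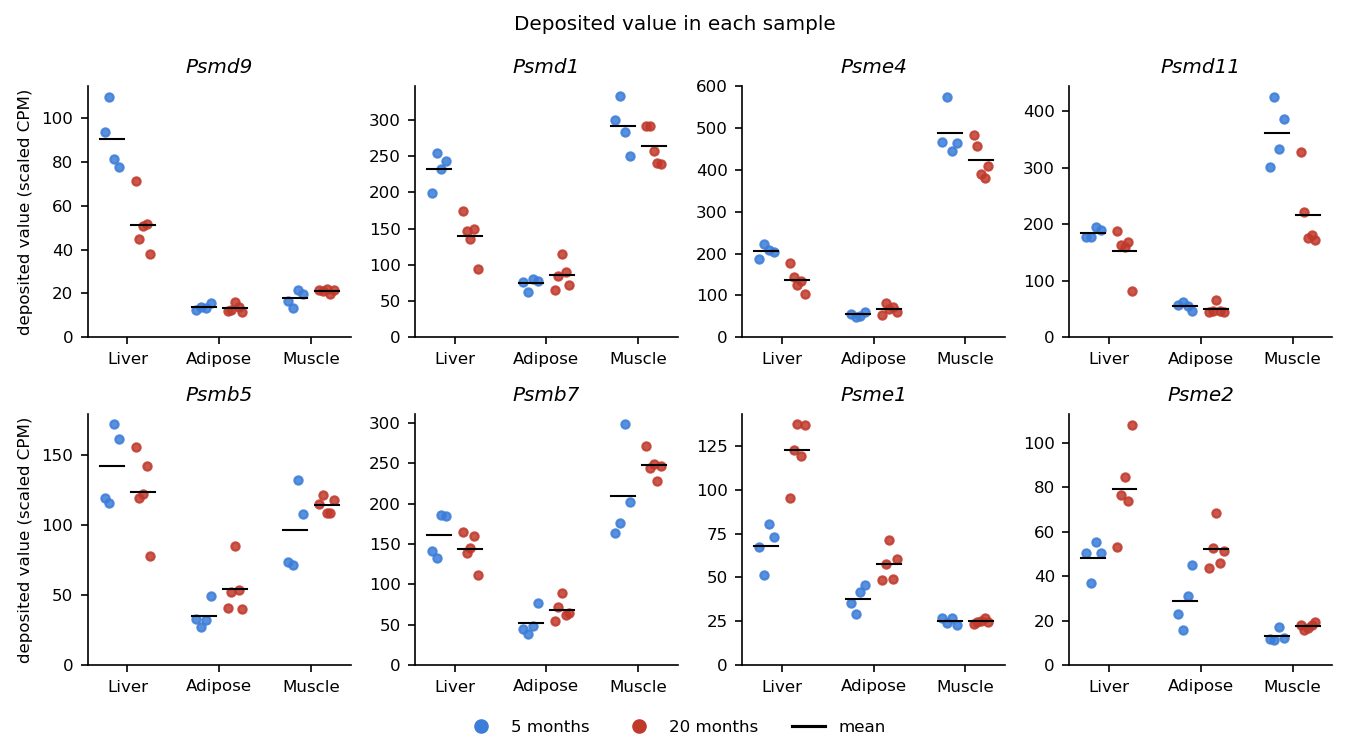
Deposited value (scaled CPM, y axis) of proteasome genes in each sample of the 3 tissues, with 5 and 20 months as separate colours and a line for each mean. *Psme1* is separate between the ages in liver and adipose tissue and level in muscle near 25, *Psmd9* is lower at 20 months in liver, and *Psmd11* falls in muscle from a mean of 362 to 216.

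Without mouse C the muscle count rose from 6 to 22, and without any of the other 8 samples it was 2, *Psmd11* and *Psmg2*. With the length and GC trend removed the count was 2 higher and 2 lower, and the median of proteasome genes was 0.04. The base and lid had medians of −0.06 and −0.04, against 0.17 and 0.29 for the alpha and beta rings, and the base and lid medians turned to 0.05 and 0.02 under quantile normalization and to 0.02 and 0.04 without the 20 most abundant genes. Heat shock genes fell in 4 of 5 in muscle, from 692 to 10674 in sum to 299 to 514. *Hspa1a* was at 4176 in mouse B and 1085 in mouse D, against 120 and 168 in mice A and C. Macrophage markers were called lower in 2 of 5 (114 to 157 in sum, then 63.3 to 124), erythroid markers in 2 of 4 (415 to 689, then 289 to 578), endothelial in 1 of 3 (371 to 433, then 286 to 381) and plasma cell markers in 1 of 4. The part of any of these in the muscle values was not tested.

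Whether the age change itself differed between tissues was tested in a fit over all 27 samples. The share of proteasome genes that differed was above that of all genes only for liver and adipose tissue. Between these, 11 of 43 genes tested differed (25.6%, against 15.6% of 15572 genes), all with the lower change in liver (against 6.97%). They were 4 base genes, *Psmc2*, *Psmc6*, *Psmd1* and *Psmd2*, 4 lid genes, *Psmd6*, *Psmd12*, *Psmd13* and *Psmd14*, and *Psma5*, *Psmd9* and *Psme4*. The median over the 43 was −0.47, against 0.00 for all genes, and 41 were below 0.

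The smallest adjusted p was that of *Psme4*. Its change was −0.60 in liver and 0.28 in adipose tissue, a difference of −0.89 (SE 0.19, limma adjusted p = 0.00285). In adipose tissue it had 56.3, 49.0, 51.7 and 60.4 at 5 months and 52.6, 82.6, 67.3, 71.0 and 61.3 at 20 months, with only mouse 36 inside the younger range. *Psmd14* differed by −0.96 and *Psmd1* by −0.93 (adjusted p = 0.00804 and 0.00582).

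The count of 11 was 5 without the 20 most abundant genes in the scaling, where the median of all genes was 0.18. It was 7 without the liver of mouse B, 6 without that of C, 17 without that of mouse 16, 6 without the adipose tissue of B, 18 without that of D and 7 without that of mouse 38. It was 17 when the mouse was a block and the length and GC trend was removed.

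Between liver and muscle, 6 of 43 genes differed (13.95%, against 17.5% of all genes), 5 of them with the lower change in liver (11.6%, against 8.19%). *Psmd9* had the smallest adjusted p, with −0.82 in liver and 0.26 in muscle, a difference of −1.09 (SE 0.21, limma adjusted p = 0.00117). Its muscle values were 16.5, 13.4, 21.8 and 19.6, then 21.6, 20.9, 22.1, 19.9 and 21.7. The older samples lay at the top of the younger range. *Psmd6* differed by −0.83, *Psmc1* by −0.76, *Psmc6* by −0.56 and *Psme3* by −0.44, and *Psme1* by 0.86 the other way (limma adjusted p = 0.00439). The count was 12 without the liver of mouse 16, and 12 with the block and the trend removed.

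Between adipose tissue and muscle 1 of 43 genes differed (2.33%, against 14.7%). This was *Psme1*, whose change was 0.59 in adipose tissue and −0.02 in muscle, a difference of 0.61 (SE 0.20, limma adjusted p = 0.0373). The call was lost without the adipose tissue of mouse A, B, 37, 38 or 40 or the muscle of A, C, 56, 57, 58 or 60, with an adjusted p of up to 0.102. The count was 0 in those sets except without muscle of mouse 56, and 2 without the adipose tissue of mouse 36.

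A measure on which the scaling of samples has little bearing is the mean log2 of the 14 core genes less that of the 17 base and lid genes of the same sample. In liver it was −0.33, −0.38, −0.17 and −0.18 at 5 months and −0.08, 0.04, 0.05, 0.02 and 0.24 at 20 months. All older samples were above all younger ones, by 0.32 on average, with mouse 74 highest. In adipose tissue it was −0.37, −0.39, −0.42 and −0.09, then −0.12, −0.08, 0.07, −0.10 and −0.14, where mouse D lay inside the older range and the means differed by 0.24. In muscle it was −0.88, −0.99, −0.64 and −0.85, then −0.62, −0.63, −0.57, −0.58 and −0.50, with no overlap and a difference of 0.26.

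**Figure D4:**
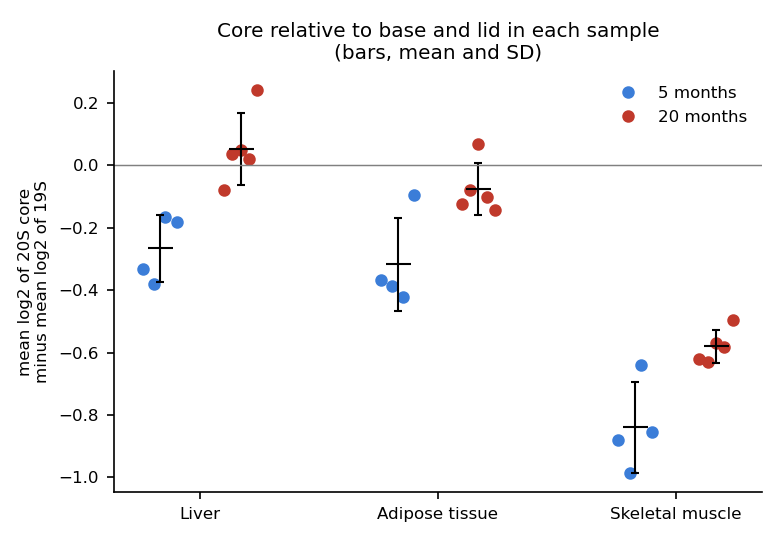
Mean log2 value of the 14 core genes minus that of the 17 base and lid genes in each sample (y axis) by tissue, with 5 and 20 months as separate colours and bars for mean and SD. The older samples lie above the younger ones in liver (difference 0.32) and muscle (0.26) without overlap and in adipose tissue (0.24) with overlap.

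The difference between core and particle is given as a description, with no test, since it was chosen with the results known. Core transcripts are the shorter, with a median of 1162.5 bases against 1636 for base and lid. With the length and GC trend removed the differences were 0.27, 0.15 and 0.17, with no overlap in liver and overlap in adipose tissue and muscle. Leaving out each sample in turn kept the liver difference within 0.27 to 0.35.

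Levels were also compared between tissues over both ages. *Psma8* passed the filter only through liver and adipose samples and is left out of these counts. All 42 other genes were higher in liver than in adipose tissue (against 39.3% of all genes), by 0.56 to 2.25 on the log2 scale and most for *Psmd9*. The 20 most abundant genes took 19.8% to 25.9% of the reads in liver and 9.56% to 14.2% in adipose tissue. With these genes left out of the scaling the median of all genes was −0.77 and that of proteasome genes 0.22, and 22 were higher and 1 lower. The share of 39.3% is that of the main fit and does not apply to these counts. Against muscle, 13 were higher in liver (30.95%, against 40.8%) and 14 higher in muscle (33.3%, against 40.8%). Of the 17 base and lid genes 11 were higher in muscle and the other 6 were not called. Examples were *Psmd7* at −1.07 (SE 0.09) and *Psmd8* at −0.93 (SE 0.12; limma adjusted p = 6.95e-11 and 7.78e-08). Of the 14 core genes 5 were higher in liver and *Psmb7* was higher in muscle, at −0.57 (SE 0.13, limma adjusted p = 0.000208). *Psme2*, *Psme1* and *Psmd9* were higher in liver, by 1.95, 1.82 and 1.75, and *Psme4* in muscle, at −1.44.

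The split of 13 and 14 was 17 higher in liver and 9 higher in muscle at 5 months alone, but 8 and 15 at 20 months alone. With the mouse as a block it was 15 and 14 over both ages, and 18 and 9 at 5 months. It was 9 and 19 without the 20 most abundant genes, and 7 and 23 with the block and the length and GC trend removed. Between adipose tissue and muscle 36 were higher in muscle (85.7%, against 34.9%) and 4 in adipose tissue (9.52%, against 47.2%): *Psme2*, *Psme1*, *Psmg1* and *Psmg4*. The largest differences were those of *Psme4*, at −2.90 (SE 0.09), and *Psmd11*, at −2.38 (SE 0.14). All 31 core, base and lid genes were higher in muscle.

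**Figure D5:**
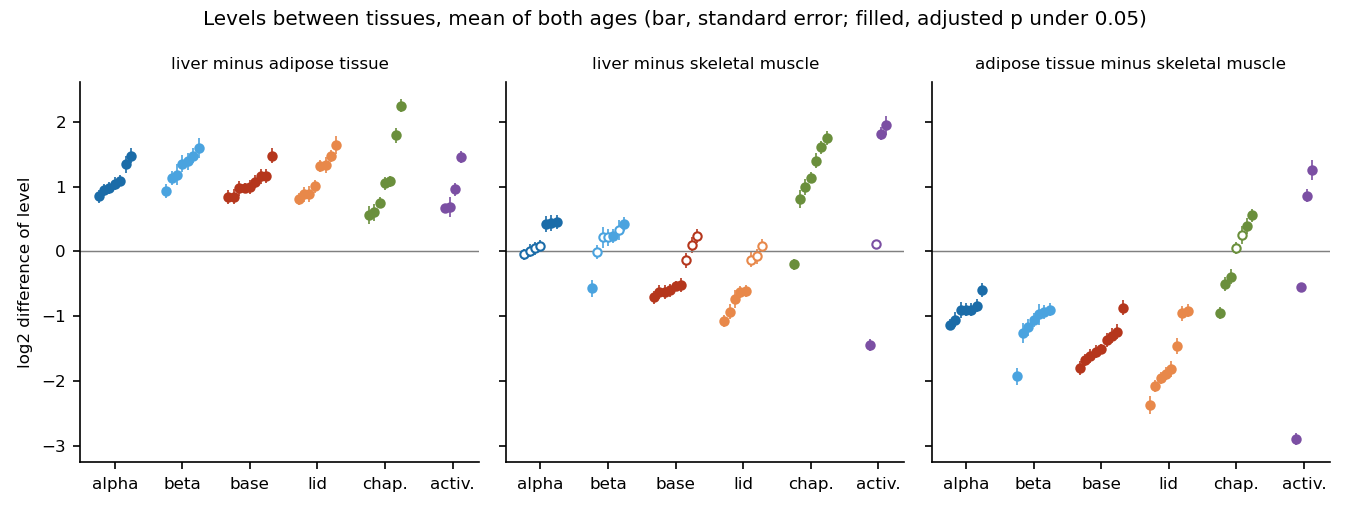
Log2 difference of level between each pair of tissues, mean of both ages, for the genes of each complex, with points for the limma estimate, bars for the standard error and filled points for an adjusted p under 0.05. Points for liver minus adipose tissue all lie above 0, between 0.56 and 2.25, and base and lid genes lie mostly below 0 for liver minus muscle.

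Levels of different genes were compared per kilobase of transcript. On that scale the beta ring was the most abundant group in each tissue, with medians of 138, 52.0 and 117 for liver, adipose tissue and muscle, and the alpha ring had 92.7, 37.5 and 77.1. The base had 85.5, 41.0 and 95.1 and the lid 59.8, 22.9 and 94.3, so that lid and base stood at about the same level in muscle and the lid lower in liver and adipose tissue. *Psma7* and *Psmb4* led in liver, both at 151, *Psma7* in adipose tissue, at 73.3, and *Psmd8* in muscle, at 215. Assembly chaperones had medians of 16.2, 6.49 and 6.02. *Psme4* was at 26.3, 9.34 and 70.2 in liver, adipose tissue and muscle, and *Psme1* at 85.7, 42.8 and 22.5.

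Other genes of the pathway were read from a list of 36 that feed, edit or regulate the proteasome, of which 34 were tested in liver and 35 in each of the other tissues. In liver 3 rose, the immunoproteasome genes above (8.82%, against 10% of all genes), and 11 fell (32.4%, against 9.79%), with a median of −0.17 against 0.00. Among those that fell were 7 of 13 deubiquitylases, ligases and shuttles. *Usp14*, which trims ubiquitin at the particle, fell by 0.69 (limma adjusted p = 0.0127), the shuttle genes *Ubqln2* by 0.69, *Ubqln1* by 0.52 and *Rad23b* by 0.43, *Ecpas* by 0.55, *Ube3c* by 0.42 and *Txnl1* by 0.39. The activating enzymes *Uba1* and *Uba6* fell by 0.52 and 0.57, and *Nploc4*, a partner of the segregase Vcp, by 0.54.

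In muscle 6 of the 35 fell (17.1%, against 10.1% of all genes) and the other 29 were not called. *Trim63* fell by 1.78, *Fbxo32* by 0.63, *Midn*, a ubiquitin-independent carrier to the proteasome, by 1.03, *Zfand2a* by 0.84, *Ddi2* by 0.48 and *Akirin2*, which carries proteasomes into the nucleus, by 0.29. In adipose tissue 4 rose, *Uba6* by 0.76 and the 3 immunoproteasome genes (11.4%, against 9.75%), and 2 fell (5.71%, against 9.35%), *Midn* by 0.67 and *Ddi2* by 0.79. *Ddi2* encodes the protease that activates Nfe2l1 and fell in each tissue, in liver by 0.40, without overlap between the ages in any of them (limma adjusted p = 0.0393 in liver, 0.0402 in adipose tissue and 0.0163 in muscle). *Nfe2l1* itself had −0.06, 0.09 and 0.05 in the same order and was not called.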

How the data were processed

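Groups of the 27 samples follow tissue and age in the labels. The authors mapped and counted reads in CLC Genomics Workbench, whose genome and annotation are not given in the sources used here, and the submitters' processing notes name GRCm38.p6 and mm10. The deposited values are a signal, CPM divided by a factor of each sample. All were whole numbers of reads, within 0.01, once divided by what 1 read is worth, so reads were recovered (14384695 to 25673919 per sample). An interval or floor from reads covers counting error only. The table was expected to hold CPM, and the test fixed for CPM was kept.

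Age was compared within each tissue, and levels and age changes between tissues in 1 fit over 27 samples, by limma 3.58.1 in R 4.3.3 on log2(value + 1) with a variance trend. Genes reaching 1 in 4 or more samples were kept, and p-values were adjusted by Benjamini-Hochberg over all genes tested, with a threshold of 0.05. A fold change on this scale understates that of low genes. P-values measure the spread between samples, which the labels give as separate mice only by number. The mouse block in the fit over tissues rests on the 5-month mouse numbers. Deviations of the same mouse correlated at −0.02 to 0.29 between tissues.

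The genes and lists were chosen with earlier results of these data known. Values in every sample are given for up to 3 called genes with the largest rise and 3 with the largest fall per tissue, *Psmb5* to *Psmb7*, *Psme1*, *Psme2*, and per tissue pair the gene with the smallest adjusted p for a difference in age change. Some genes of the pathway and marker lists are not reported here.

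Alternatives were pseudocounts, filters, scalings, weights, edgeR 4.0.16 and DESeq2 1.42.0 on recovered reads, removal of a spline trend on the length and GC content of transcripts, the mouse block and each sample left out. Lengths and shared words came from GENCODE, promoters from RefSeq. Procedures were tested on simulated data.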

Additional observations from a re-analysis of the deposited data

Results flagged for a closer look

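The age change of 3 proteasome genes differed between tissues by a test of the difference itself, taking the gene with the smallest adjusted p for each pair of tissues. The change of *Psme4* in liver less that in adipose tissue was −0.887 on the log2 scale (SE 0.188, limma adjusted p = 0.00285). It was lower in 5 of 5 older livers than in every younger one, and higher than every younger sample in 4 of 5 older adipose samples. *Psmd9* differed by −1.09 between liver and skeletal muscle (SE 0.208, limma adjusted p = 0.00117), with 5 of 5 older livers below every younger one. *Psme1* differed by 0.610 between adipose tissue and muscle (SE 0.196, limma adjusted p = 0.0373), with 5 of 5 older adipose samples above every younger one. The first 2 kept their call under every alternative tried, and the last was lost in 13 of 37. The 5-month samples of the 3 tissues came from the same mice.

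A test for a single sample far from the rest of its group was run in 52 sets of 4 or 5 samples of the genes given in every sample and found 0, where chance gives about 1 in 20. Other genes were not in this test. In liver, *Psmd10* was at 26.5 in mouse 74 against 12.3 to 14.1 in the other 20-month mice. *Psmd11* was at 82.4 there against 160 to 188. With 4 or 5 samples in a set, a result of 0 does not show that no sample stood apart.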

How the results depend on the processing

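Counts of called genes moved with the processing. Shares of all genes are given for the main fits only. Counts under the alternatives therefore show how the calls moved, not how proteasome genes compare with all genes. Directions moved for the 14 core genes in liver, with 12 below 0 in the main fit and 3 without the 20 most abundant genes in the scaling. That scaling moved the liver median of all genes from 0.00 to 0.16 and that of the core genes from −0.12 to 0.05. The core median was below that of all genes in both. The liver count of 10 was 6 with no filter and 20 with sample weights, and 3 to 17 with a sample left out. The adipose count of 3 was 0 with no filter, 23 with sample weights, 7 by DESeq2, 13 with all 27 samples in 1 fit, and 0 to 11 with a sample left out. The muscle count of 6 was 2 with no filter or no variance trend, 3 in the fit of 27 samples, and 2 to 22 with a sample left out. Of differences in age change, the 11 between liver and adipose tissue became 5 without the 20 most abundant genes in the scaling, 17 under a replicate block for the mouse plus removal of the length and GC trend, and 6 to 18 with a sample left out. The 6 between liver and muscle became 12 with that block and trend, and 5 to 12 with a sample left out. The 1 between adipose tissue and muscle became 0 with no filter or without the 20 most abundant genes, 2 with the block and trend, and 0 to 2 with a sample left out. The cause was not tested. With the mouse block alone these counts were 11, 8 and 1, and the counts of level differences, *Psma8* included, 43, 30 and 41. The 43 level differences between liver and adipose tissue became 23 without the 20 most abundant genes, and stayed at 42 or 43 with a sample left out. The 28 and 41 of the other pairs were 26 to 30 and 40 to 42. The difference between core and particle with a sample left out was 0.27 to 0.35 for liver, 0.21 to 0.32 for adipose tissue, and for muscle 0.21 to 0.33. Its removal of the length and GC trend was chosen after seeing the data. Over 25 single-gene results and 595 alternatives, 510 kept the side of the threshold, 72 lost the call, 13 gained one and 0 reversed. Among genes tested for age in each tissue, depth was lowest for *Psmg4*, at 23 reads in 1 sample.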
